A study of Rattus norvegicus with 8 samples.

Results

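The domains described here are stretches of the rat genome in which H2AK119ub1 was called over many more bases in injured sciatic nerve, 1 day post injury (1 dpi), than in sham nerve. They were chosen from the calls themselves. Enriched regions of the 2 conditions were pooled, regions with a gap of at most 5 kb were merged, and merged stretches spanning at least 10 kb were kept as joint domains. A joint domain was called sparse when the regions of both lists together covered fewer than 10000 bp of it. Of 5234 sparse joint domains, 1793 had at least 2 times as many bases in 1 dpi regions as in sham regions, which was 34.3% of them (Wilson 95% interval 33.0 to 35.6%). These 1793 domains held 21818 regions, 16234 from the 1 dpi list and 5584 from the sham list, out of 181386 regions in all. That was 16.3% of the 1 dpi list and 6.81% of the sham list.

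H2AK119ub1, histone H2A carrying a single ubiquitin on a lysine near its C-terminus, is written by the RING1 ubiquitin ligases of Polycomb repressive complex 1 (PRC1) and erased by deubiquitinases such as BAP1. It marks repressed genes, often together with the H3K27 trimethylation that PRC2 deposits, and it can lie in compact peaks at promoters or be spread thinly over long stretches. In the distal stump of a cut nerve the axons degenerate, and Schwann cells leave the myelinating state and switch on a repair program that includes Polycomb-regulated genes.

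The sham list came from the contralateral sciatic nerve of male Sprague Dawley rats, which had a skin incision only, and the 1 dpi list from nerve distal to a transection, both taken 1 day after surgery. The labels give an age of P28, call the rats adult, and state that nerves of 2 rats were used. Each condition had 2 H2AK119ub1 ChIP libraries and 2 input libraries, and each list was called on the combined ChIP libraries against combined input, so there is 1 value per condition and no spread between animals. The lists rested on 19714687 sham tags and 76420053 1 dpi tags, a 3.88-fold difference. A region had to hold at least 10 tags in sham nerve and 20 at 1 dpi, so that relative to depth the sham threshold was 1.94 times the 1 dpi threshold. Of all tags, 9.73% lay in regions in sham nerve and 5.33% at 1 dpi. Depth, calling threshold and injury therefore cannot be told apart in any difference below, and no difference between conditions was tested. Whole nerve was used, so a mark present in more cells and a mark that is denser in the same cells cannot be told apart either. All coordinates are on rn5, counted from 1. No rn5 genome or annotation was used, so genes and sequences in the domains were not analysed here.

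The domains covered mainly after injury were clusters of short regions. The rule leaves no room for a single broad block, since a span of at least 10 kb had to hold fewer than 10000 bp of regions. Their span ranged from 10 to 75.9 kb with a median of 15.8 kb, and together they spanned 34.4 Mb. The median domain had 7 regions covering 1544 bp at 1 dpi, and 2 regions covering 453 bp in sham nerve. Regions at 1 dpi covered 10.6% of the summed span and sham regions 3.26%. The summed bases were 3.63 Mb at 1 dpi and 1.12 Mb in sham nerve, a ratio of 3.24 that follows from how the domains were chosen. The lists differed more in the number of regions than in their width. The 1 dpi list had 2.91 times as many regions in these domains as the sham list, whereas mean width was 224 bp (SD 159 across 16234 regions) against 201 bp (SD 113 across 5584 regions). Over the whole lists the 1 dpi list had 1.21 times as many regions, and mean width was 220 bp against 229 bp. The rule asks for more 1 dpi bases, so the excess in number also follows in part from it.

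The ratio of 1 dpi to sham bases varied widely among the domains. Among the 1684 domains with at least 1 sham region, the median ratio of 1 dpi to sham bases was 3.11, with quartiles of 2.43 and 4.42. The ratio was below 2.5 in 490 domains, reached 5 in 333 and reached 10 in 59, with a maximum of 44.1. Of the 1684 domains, 367 had a single sham region, so a high ratio can rest on very few sham bases. The domains nearest to the limit on the inside were small. A domain on chromosome 1 (269038694 to 269049865) had 4 1 dpi regions of 698 bp in all and 2 sham regions of 349 bp. Others on chromosome 3 (99985156 to 99995608) and chromosome 4 (527575 to 543224) each had 604 bp at 1 dpi and 302 bp in sham nerve, with 4 and 2 regions. All regions of the domains on chromosomes 3 and 4 were 151 bp wide, so the ratio of 2 followed from their number. The closest domains outside were on chromosome 4 (148850585 to 148862803), with 2035 and 1018 bp, chromosome 12 (19089801 to 19128327), with 5833 and 2918 bp, and chromosome 1 (129862581 to 129876820), with 1943 and 974 bp.

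**Figure D1:**
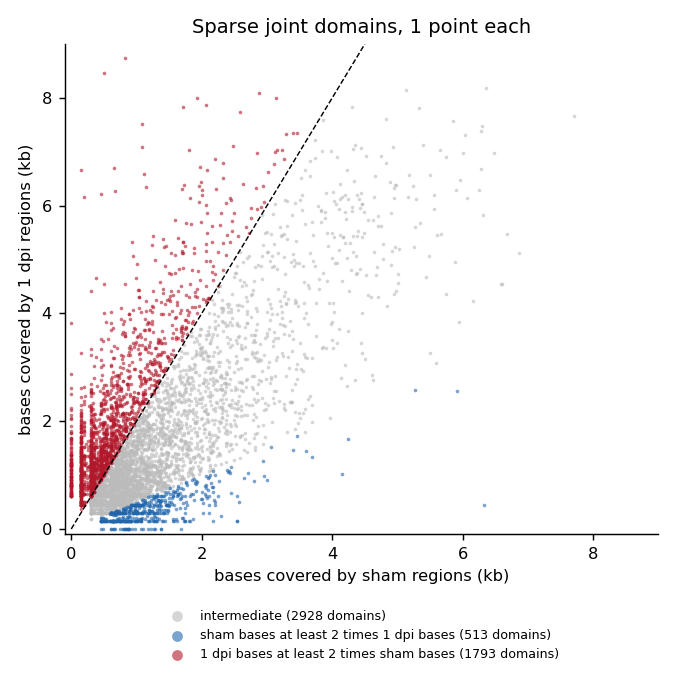
Bases covered by 1 dpi regions (y axis, kb) against bases covered by sham regions (x axis, kb) in the 5234 sparse joint domains, 1 point per domain; the dashed line marks a ratio of 2. The 1793 domains covered mainly after injury lie on or above the line, and those without a sham region form the column at 0 on the x axis.

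The 3 domains with the most 1 dpi bases differed in how much sham coverage they held. On chromosome 8 (51644464 to 51705012, 60.5 kb), 36 1 dpi regions covered 8746 bp and 4 sham regions covered 819 bp, a ratio of 10.7. The widest 1 dpi region there measured 1083 bp (51666548 to 51667630) and touched no sham region, and the widest sham region measured 228 bp. On chromosome 19 (54805726 to 54857825, 52.1 kb), 34 1 dpi regions covered 8454 bp and 3 sham regions covered 496 bp, a ratio of 17.0. Its widest 1 dpi region measured 1108 bp (54849878 to 54850985) and again touched no sham region. The other domain of this kind, on chromosome 10 (3680168 to 3726593, 46.4 kb), had 25 1 dpi regions over 8094 bp and 12 sham regions over 2884 bp. There the widest 1 dpi region, of 1413 bp, did overlap sham calls, as did 6 of the 25 1 dpi regions.

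The longest domains held many narrow 1 dpi regions. The longest, on chromosome 16 (1390289 to 1466171, 75.9 kb), had 29 1 dpi regions covering 6195 bp and 10 sham regions covering 2011 bp, and the lists shared only 151 bp. The next, on chromosome 13 (79258483 to 79328531, 70.0 kb), had 31 and 9 regions covering 6720 and 1971 bp, with 270 bp shared. On chromosome 4 (196780168 to 196848915, 68.7 kb), 38 1 dpi regions covered 7868 bp and 11 sham regions 2061 bp, with 584 bp shared. In each of these 3 domains the widest 1 dpi region was under 1 kb, at 777, 584 and 644 bp. Outside the edges they differed: within 50 kb the domain on chromosome 13 had 4 1 dpi and 5 sham regions, whereas that on chromosome 16 had 29 and 12 and that on chromosome 4 had 35 and 17.

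A different layout was seen in the domains picked for holding the earliest entries of the 1 dpi list. Region width declined along the list, so this choice favours wide 1 dpi regions. Wide regions also have more bases that can meet a sham region, so the layout partly follows from the choice. On chromosome 8 (63360811 to 63381996, 21.2 kb), a single 1 dpi region of 4052 bp (63365875 to 63369926), the widest of all 16234 1 dpi members, made up most of the 6141 bp covered at 1 dpi. The 9 sham regions of this domain covered 2433 bp, 6 of them overlapped a 1 dpi region, and the widest measured 544 bp. On chromosome 8 at 75409161 to 75456361 (47.2 kb), a 1 dpi region of 3230 bp overlapped a sham call, and the widest sham region measured 1605 bp, the most among the 5584 sham members. On chromosome 1 (250074836 to 250085299, 10.5 kb), 6 1 dpi regions covered 6076 bp and 4 sham regions covered 2950 bp, of which 2799 bp were shared. In each of these 3 domains the widest 1 dpi region overlapped the sham list, and the ratios of 2.52, 2.56 and 2.06 were below the median of the chosen domains.

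**Figure D2:**
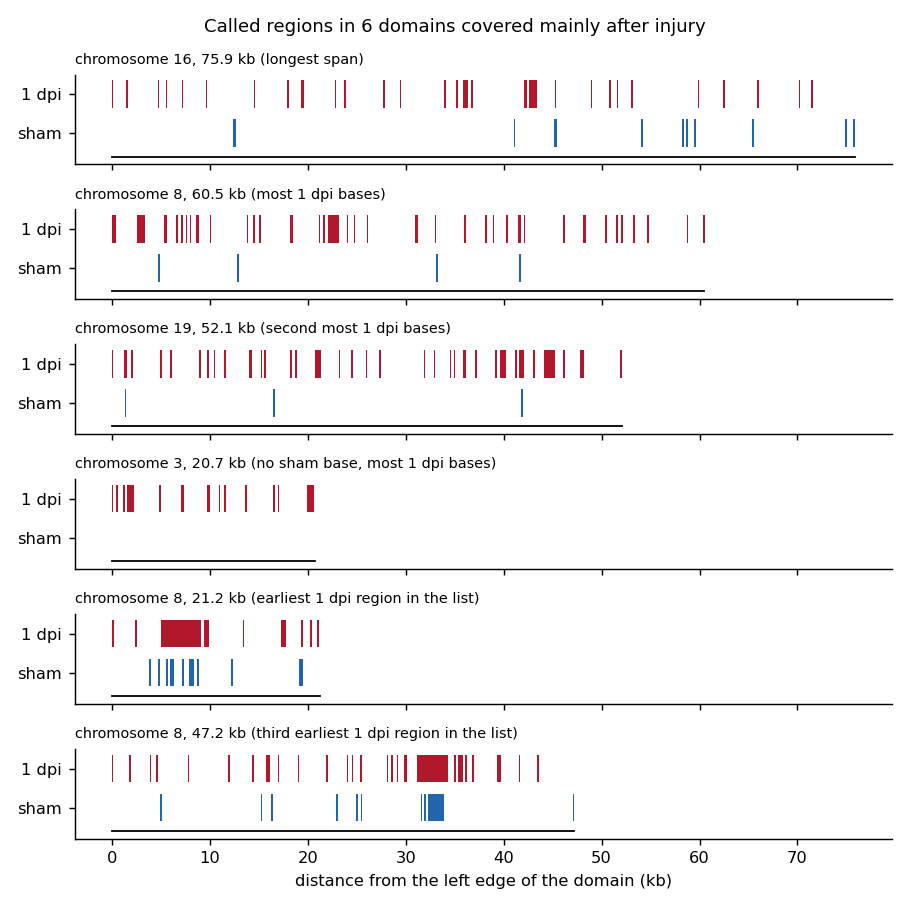
Regions called at 1 dpi (red) and in sham nerve (blue) in 6 of the named domains, drawn to scale against the distance from the left edge of the domain (kb); the black line is the domain span. The first 3 maps show many 1 dpi regions along the domain, of which 2, 2 and 4 were at least 500 bp wide, with 10, 4 and 3 sham regions, the fourth has none in sham nerve, and the last 2 each hold 1 broad 1 dpi region that overlaps sham calls.

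No sham region at all was called in 109 of the 1793 domains, or 6.08% (5.06 to 7.28%), and a further 367 had a single one. Domains without a sham region were shorter and sparser, which follows in part from building domains out of the regions of both lists. They had 3 to 14 1 dpi regions with a median of 5, a median span of 12.3 kb and a median of 1080 bp covered at 1 dpi. Their 661 1 dpi regions had a mean width of 194 bp, against 225 bp for the 1 dpi regions of the other 1684 domains. The fullest was on chromosome 3 (11988444 to 12009128, 20.7 kb), where 13 1 dpi regions covered 3818 bp, the widest 752 bp. The next were on chromosome 1 (238682380 to 238699639, 17.3 kb), with 10 regions over 2884 bp, and chromosome 5 (24879859 to 24912962, 33.1 kb), with 14 regions over 2619 bp. Sham calls were present beside all 3. Within 50 kb outside the edges there were 6, 9 and 3 sham regions, against 26, 25 and 4 1 dpi regions.

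Few of the 1 dpi members met a sham region, whereas a larger share of the sham members met a 1 dpi region. Of the 16234 1 dpi members, 1874 shared at least 1 bp with a sham region, or 11.5% (11.1 to 12%), against 16.8% of the whole 1 dpi list and 23.3% of the 1 dpi regions in the 2928 intermediate sparse domains, in which neither list had 2 times the bases of the other. In 809 domains, or 45.1%, no 1 dpi region overlapped a sham region, against 28.9% of intermediate domains, 61.8% of domains covered mainly in sham nerve, in which sham regions covered at least 2 times the bases of 1 dpi regions, and none of the heavily covered domains. Of the 5584 sham members, 1912 overlapped a 1 dpi region, or 34.2% (33.0 to 35.5%), against 20.7% of the whole sham list and 30.2% (29.5 to 30.8%) in intermediate domains. The rule limits sham bases, so all of these shares are partly set by it and were not tested. The 809 domains include the 109 without a sham region, where no overlap was possible. The median domain had 2 sham regions, against 5 in intermediate domains. A 1 dpi region lay within 1 kb of 71.3% of the sham members, against 62.6% in intermediate domains and 41.6% of the whole sham list. A sham region lay within 1 kb of 32.3% of the 1 dpi members, against 53.5% in intermediate domains and 38.1% of the whole 1 dpi list.

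Overlapped and other members differed in width and in their place in the lists. A wider region has more bases that can meet the other list, and listing place went with width. Both differences are therefore given as a description. The files hold no peak height. The listing order was used in its place, since width declined along it: the first 5% of entries had a mean width of 816 bp (1 dpi) and 785 bp (sham), and the last 5% were 151 bp wide in both lists. The 1874 overlapped 1 dpi members had a mean width of 347 bp, and 60.4% (58.1 to 62.5%) of them stood in the first 25% of the list. The values in intermediate domains were close, at 367 bp and 59.4% (58.1 to 60.7%). The 14360 others had a mean width of 208 bp, and 26.1% (25.4 to 26.8%) stood there, against 25% of the whole list by construction. In intermediate domains 21.4% (20.8 to 22.1%) of the 1 dpi regions without an overlap stood there. Among sham members, 27.0% of the overlapped and 14.2% (13.1 to 15.4%) of the others stood in the first 25% of the sham list, against 46.8% and 25.1% in intermediate domains.

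Place in the list was also compared for all members of each list, overlapped or not. Of the 1 dpi members, 30.0% (29.3 to 30.7%) were in the first 25% of their list, against 30.3% (29.7 to 30.9%) in intermediate domains. Of the sham members, 18.6% (17.6 to 19.6%) were in the first 25% of theirs, against 31.7% (31.0 to 32.4%) in intermediate domains. The first 10% of the sham list supplied 5.48% of the sham members and 14.2% of the sham regions in intermediate domains. The first 10% of the 1 dpi list supplied 11.4% (10.9 to 11.9%) of the 1 dpi members and 13% (12.5 to 13.4%) of the 1 dpi regions in intermediate domains. Single calling windows, of 151 bp, made up 54.3% (53.5 to 55.1%) of the 1 dpi members and 54.8% in intermediate domains, and 64.6% of the sham members against 52.7% in intermediate domains. Since wide sham regions add sham bases, fewer of them are to be had in domains chosen for few sham bases, and these shares are given as a description.

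**Figure D3:**
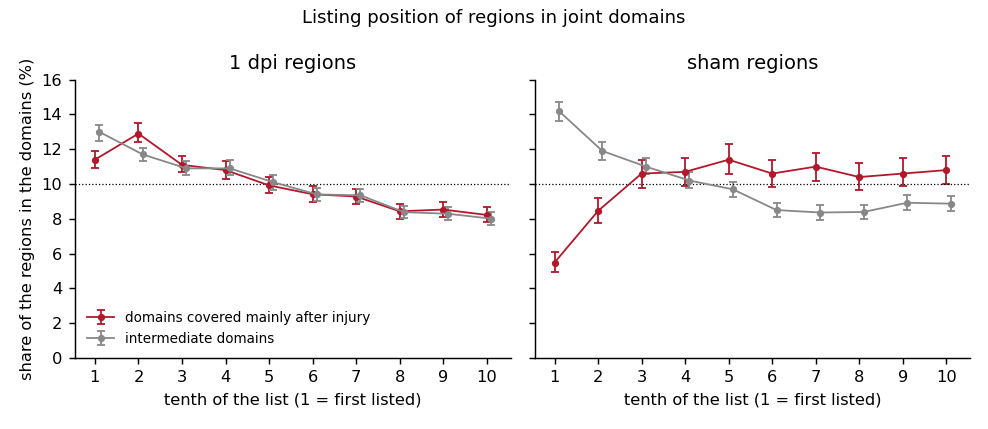
Share of the regions in each successive 10% of the 1 dpi list (left) and the sham list (right), for domains covered mainly after injury (red) and intermediate domains (grey); bars are Wilson 95% intervals and the dotted line is the 10% that each step holds of the whole list. For 1 dpi regions the curves differ most in the first 20% of the list and are close beyond it. The first 10% of the sham list supplied 5.48% of the sham regions in domains covered mainly after injury and 14.2% in intermediate domains.

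The spacing and the edges of the domains are given as a description, since a rule that asks for more 1 dpi bases brings in more 1 dpi regions. The median gap between neighbouring 1 dpi members was 1551 bp, against 1714 bp in intermediate domains, and that between sham members was 3340 bp against 2212 bp. Both outermost regions came from the 1 dpi list in 62.1% of the domains (59.8 to 64.3%) and both from the sham list in 3.79%, against 30.2% and 17.2% of intermediate domains. Coverage was divided among many regions. The widest 1 dpi region held a median of 23.3% of the 1 dpi bases of its domain, against 27.8% in intermediate domains. A 1 dpi region of at least 500 bp was present in 570 domains, or 31.8% (29.7 to 34.0%), against 29.6% (28 to 31.3%) of intermediate domains. There were 845 such wide 1 dpi members, and 499 of them, or 59.1%, overlapped no sham region, against 35.5% of the 4767 wide regions of the whole 1 dpi list. These 499 were 29.5% of all 1694 wide 1 dpi regions without a sham overlap in the genome. For comparison, the domains held 845 of the 4767 wide 1 dpi regions and 16.3% of the whole 1 dpi list. The limit on sham bases partly sets both shares of the 499.

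The share of sparse domains that were covered mainly after injury varied less with the number of regions they held than the share covered mainly in sham nerve. Among domains of 5 regions or fewer, counted over both lists, 30.3% (26.7 to 34.1%) were covered mainly after injury and 26.7% (23.3 to 30.4%) mainly in sham nerve. Among the 693 domains of 21 regions or more, the shares were 32.8% (29.4 to 36.3%) and 0.144% (0.0255 to 0.813%), the latter a single domain. Over all sizes, 9.80% of sparse domains were covered mainly in sham nerve. The ratio of 1 dpi to sham bases summed over all sparse domains of a size rose from 1.07 to 1.58 between these groups. When as many 1 dpi regions were used as the sham list holds, taken from the start of the list, the shares among domains of 21 regions or more were 25.8% and 0.879%. The number of regions enters both the size and the class of a domain, so these shares were not tested.

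**Figure D4:**
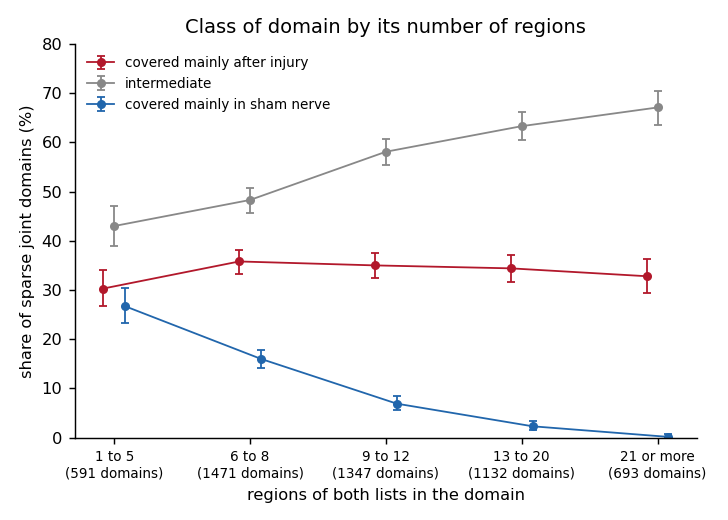
Share of sparse joint domains (y axis, %) that were covered mainly after injury (red), mainly in sham nerve (blue) or intermediate (grey), by the number of regions of both lists in the domain; bars are Wilson 95% intervals. The red share stayed between 30.3 and 35.8%, and the blue share declined from 26.7 to 0.144%.

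The excess of 1 dpi coverage did not end at the domain edges. The sequence outside a domain was not used to choose that domain, except that the first 5 kb hold no region by construction. Flanks can hold other chosen domains, however, whose bases were selected by the same rule. Ratios over all flanking regions are therefore partly set by the rule. Within 50 kb outside both edges, 1 dpi regions covered 5.94 Mb and sham regions 3.52 Mb, summed over the 1793 domains, a ratio of 1.69 (1.65 to 1.72). The ratio was 1.37 (1.35 to 1.39) beside intermediate domains and 1.04 (0.994 to 1.08) beside domains covered mainly in sham nerve, and 1.16 over the whole lists. Beside the 279 heavily covered joint domains, in which both lists together covered 10000 bp or more, it was 1.55 (1.48 to 1.62), so a flanking excess was not particular to the chosen domains. More 1 dpi than sham bases were found beside 1442 of the 1793 domains, or 80.4% (78.5 to 82.2%), and fewer beside 338. The same held for 68.6% (66.9 to 70.3%) of intermediate and 78.5% (73.3 to 82.9%) of heavily covered domains. Flanks of neighbouring domains overlap, and intervals cover counting error only.

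Most of the flanking coverage lay in other joint domains, and the median distance to the nearest joint domain was 21 kb. Of the 5.94 Mb at 1 dpi and 3.52 Mb in sham nerve, only 2.16 and 1.37 Mb lay outside every joint domain. That neighbour was itself covered mainly after injury in 40.9% (38.7 to 43.2%) of cases, against 31.4% for intermediate domains and 24.0% for domains covered mainly in sham nerve. Counting only flanking regions that belonged to no joint domain, the ratio was 1.57 (1.53 to 1.62), against 1.25 (1.22 to 1.28) beside intermediate domains and 0.896 (0.847 to 0.949) beside domains covered mainly in sham nerve. Beside heavily covered domains it was 1.52 (1.39 to 1.65), an interval that holds the value of the chosen domains. The ratio over all flanking regions, those in other joint domains included, also moved with the density of calls. When sparse domains were divided into 4 groups of about equal size by the number of flanking regions of both lists, it rose from 1.39 to 1.78 beside domains covered mainly after injury and from 1.05 to 1.45 beside intermediate domains. In each group it was higher beside the former. The part of density in the difference was not tested further.

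**Figure D5:**
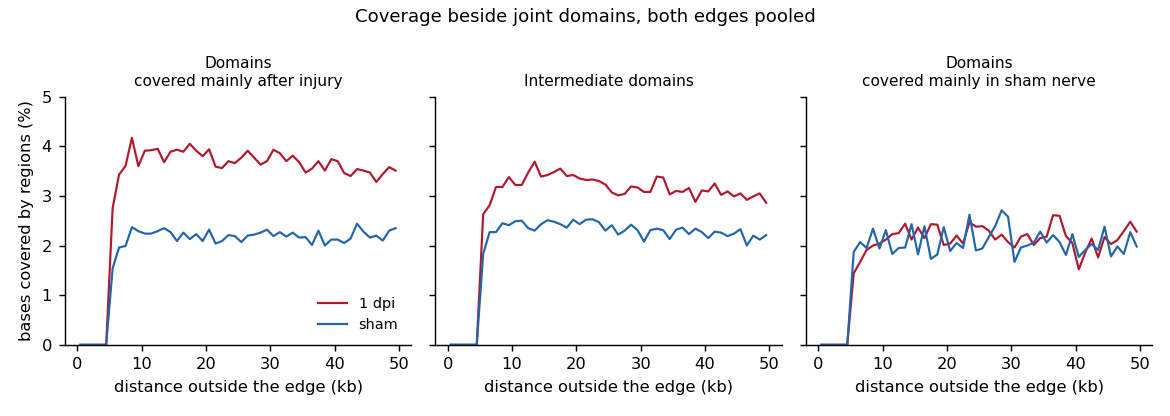
Percentage of bases covered by 1 dpi (red) and sham (blue) regions in 1 kb steps outside the edges of the 3 kinds of sparse joint domain, both edges pooled; the first 5 kb are empty by construction. Beside domains covered mainly after injury, 1 dpi coverage lay between 2.75 and 4.17% and sham coverage between 1.54 and 2.44%. Coverage was higher at 1 dpi in all 45 steps beyond 5 kb. Regions in other joint domains, chosen ones included, are counted.

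Domains covered mainly after injury were found on all 21 chromosomes of the lists. Their share of the sparse domains ranged on the autosomes from 22.8% (15.4 to 32.4%) on chromosome 15, with 21 of 92, to 40.9% (33.0 to 49.2%) on chromosome 11, with 56 of 137. Chromosome 1 had the most, 211, followed by chromosome 10 with 179 and chromosome 3 with 151. Chromosome X had 6 of only 13 sparse domains, and none covered mainly in sham nerve. Over whole chromosomes, 1 dpi regions covered fewer bases than sham regions on chromosomes 2, 15 and 17, with ratios of 0.940, 0.926 and 0.996, and 69, 21 and 49 of the domains lay there. The upper bound of the share was below 34.3% on chromosomes 9, 15 and 17, at 32.2, 32.4 and 33.4%.

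The flanking excess was seen within chromosomes as well, counting all flanking regions, also those in other joint domains. Some of those are chosen domains, so these ratios too are partly set by the rule. The excess was not computed by chromosome for regions outside joint domains. Beside domains covered mainly after injury, the ratio of 1 dpi to sham bases within 50 kb was above 1 on each of the 21 chromosomes, and above that of intermediate domains on 19. The exceptions were chromosome 15, with 1.15 against 1.17, and chromosome X, with 1.33 against 1.97 over 6 and 7 domains. The largest value was 2.38 beside the 59 domains on chromosome 18, where intermediate domains had 1.24. Chromosome 18 also had the highest ratio inside the chosen domains, 4.05, against 2.95 to 3.61 on the others.

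The same domains were also counted with fewer regions. With the domain limits held fixed and 1 dpi regions reduced to the 82046 first listed, as many as in sham nerve, 1513 of the 1793 domains, or 84.4% (82.6 to 86.0%), had at least 2 times as many 1 dpi as sham bases, 10 had fewer 1 dpi than sham bases, and the ratio of summed bases was 2.93. With the first 50% of each list, 1512 reached the ratio, 38 had fewer 1 dpi bases, 44 had no region left, and the summed ratio was 3.83. With regions wider than a single window, 1487 reached it, 57 had fewer 1 dpi bases, 57 had no region left, and the summed ratio was 3.99. When the domains were instead built anew from these regions, the numbers covered mainly after injury were 1302, 848 and 622. The counts with fixed limits use the values that chose the domains and say nothing of their stability in other animals.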

How the data were processed

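The submitters' processing notes name CASAVA 1.8.2, Bowtie and HOMER, and the study aligned reads from micrococcal nuclease-digested chromatin to rn5. Regions of each condition were called by the authors, per the file headers, with HOMER findPeaks (version not given in the sources used here) on 2 combined libraries. The settings were peaks of 150 bp at least 370 bp apart, stitching into variable regions, 4-fold enrichment and a Poisson p-value of 1.00e-04 over input and over the local 10 kb, and a false discovery rate of 0.001. Tags counted per bp were limited to 1 in sham and 3 at 1 dpi, and the tags required were 10 and 20. The deposited lists give region start and end. The score column deposited by the authors is constant and was not used.

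Domains, overlaps (at least 1 bp) and flanks (50 kb) were computed with Python 3.11.15 and pandas 2.3.3 and checked on simulated lists. Listing order was used in place of peak height. Shares have Wilson 95% intervals for counting error only. The interval of a flank ratio was derived from that of the 1 dpi share, taking the number of regions as n. Named domains were fixed by rule: the 3 with the longest span, the most 1 dpi bases, the most 1 dpi bases without a sham base, the earliest 1 dpi entry, and the ratios closest to 2 on either side, with ties settled by chromosome and start. Members, lists and alternatives were chosen with earlier results of these data known. No value per library was analysed here, so no test was made.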

Additional observations from a re-analysis of the deposited data

How the results depend on the processing

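No paired analysis was possible because replicate 1 and replicate 2 of a condition were merged into 1 list, and for the same reason no replicate could be left out in turn. Depth limits every result: the 1 dpi list was called on more tags, and its part in the results was not tested. Of 134 values under alternative settings for 13 results, 32 stayed within the counting interval of the value given above or, for the number of domains, within 1.5 times of it, 98 moved and 4 changed side. The flank ratio was higher beside domains covered mainly after injury than beside intermediate domains in 12 of 12 alternatives (1.46 to 1.89 against 1.21 to 1.52). Except outside joint domains, these flank ratios count bases in other chosen domains. In domains of 21 regions or more, the share covered mainly after injury exceeded that covered mainly in sham nerve in 9 of 9. The former was 13.6 to 54.8% and the latter 0 to 2.74%. Both are classes set by the rule on the same lists, so their order is a description only. Alternatives that kept the domain limits, or that used flanking regions outside joint domains, were chosen after seeing the data. The cause of the changes below was not tested.

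The number of domains was 278 when regions were merged within 2000 bp, 561 with a minimum span of 20 kb, 1029 with a ratio of at least 3, 622 with regions wider than a single window and 848 with the first 50% of each list. Their share of sparse domains was 27.3% on merging within 10000 bp, 49.2% and 19.7% with ratios of 1.5 and 3, 39.2% with regions wider than a single window, 28.8% with 1 dpi regions reduced to the number of sham regions, and 39.4% with the first 50% of each list.

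The share of 1 dpi members overlapped was 18.3% and 9.16% on merging within 2000 and 10000 bp, 12.6% with a span of 20 kb, 14.0% and 8.40% with ratios of 1.5 and 3, 12.8% without the limit on covered bases and also with 1 dpi regions reduced in number, 12.7% with the first 50% of each list, 6.78% when 50% of a region had to be covered and 32.3% within 1 kb. That of sham members was 46.1% and 28.1% on merging within 2000 and 10000 bp, 36.1% without the limit on covered bases, 39.4% with regions wider than a single window, 41.9% with the first 50% of each list, 26.4% when 50% had to be covered and 71.3% within 1 kb. The share of domains without a sham region was 1.08% and 12.5% on merging within 2000 and 10000 bp, 0.713% with a span of 20 kb, 4.23% and 10.6% with ratios of 1.5 and 3, 12.2% with regions wider than a single window, 4.61% with 1 dpi regions reduced in number and 9.67% with the first 50% of each list.

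Single windows made up 40.6% and 60.3% of 1 dpi members on merging within 2000 and 10000 bp, 51.8% with a span of 20 kb, 52.3% without the limit on covered bases, 45.7% with 1 dpi regions reduced in number and 24.1% with the first 50% of each list, and the share was not computed where they were left out. The share of 1 dpi and sham members in the first 25% of their lists was 44.2% and 24.6% on merging within 2000 bp, 23.8% and 16.6% within 10000 bp, 33.0% and 20.5% with a span of 20 kb, and 32.3% and 20.6% without the limit on covered bases. With a ratio of 1.5 the sham share was 22.5%, and with a ratio of 3 the shares were 28.9% and 13.8%. Shares rise by construction where late entries were left out, to 67.1% and 56.9% with regions wider than a single window, 59.1% and 46.8% with the first 50% of each list, and 36.6% for 1 dpi members reduced in number. The first 10% of the lists held 11.4% and 5.48%.

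The flank ratio was 1.89 and 1.46 on merging within 2000 and 10000 bp, 1.86 with a span of 20 kb, 1.63 and 1.75 with ratios of 1.5 and 3, 1.89 with regions wider than a single window, 1.59 with 1 dpi regions reduced in number, 1.87 with the first 50% of each list, 1.75 and 1.60 for flanks of 20 and 200 kb, and 1.57 outside joint domains. Beside domains covered mainly in sham nerve it fell below 1, to 0.818 on merging within 10000 bp, 0.924 with a ratio of 3, 0.954 with 1 dpi regions reduced in number and 0.896 outside joint domains.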
